A study of Rattus norvegicus with 36 samples.

Results

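Oxidative phosphorylation transcripts were described in ileum and colon of UCD-T2DM rats, a polygenic rat model in which type 2 diabetes arises spontaneously. The genes were every row of the raw count table whose symbol begins with Ndufa, Ndufb, Ndufc, Ndufs, Ndufv, Sdha, Sdhb, Sdhc, Sdhd, Uqcr, Cox4i, Cox5, Cox6, Cox7, Cox8 or Atp5 and whose mean over the 36 libraries was at least 1 CPM (counts per 1e6 counts of the library). The rule named 100 rows of the 24773 in the table, of which 89 reached this level and 11 did not. Of the 89, 75 encode subunits or copies of subunits of the 5 complexes, with 33 in complex I, 4 in complex II, 9 in complex III, 15 in complex IV and 14 in complex V. The other 14 include 7 assembly factors of complex I (Ndufaf) and 3 assembly factors of complex II (Sdhaf). They also include the supercomplex factor Cox7a2l, the copy Ndufa10l1, and Atp5s and Atp5sl, named after ATP synthase but grouped here as assembly proteins. The 11 rows under 1 CPM were Ndufa1, Ndufa13, Ndufa4l2, Ndufb4l1, Cox6c-ps1, Cox7a1, Cox7b2, Cox8b, Cox8c, Atp5f1 and Sdhaf1. Among them, Ndufa1 (0.041 CPM), Ndufa13 (0.835 CPM, a span of 429 bases) and Atp5f1 (0.253 CPM) are rows of complexes I and V. The sums of these complexes given below lack them. Whether their low counts reflect the genes or the assignment of reads to rows was not tested.

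Oxidative phosphorylation takes place in the inner mitochondrial membrane. Complex I (NADH dehydrogenase) and complex II (succinate dehydrogenase) pass electrons to ubiquinone, complex III (the cytochrome bc1 complex) passes them to cytochrome c, and complex IV (cytochrome c oxidase) passes them to oxygen. Complexes I, III and IV pump protons, and complex V (ATP synthase) lets the protons return through its c ring and makes ATP in its F1 head. Assembly factors help to build the complexes and are not part of the finished enzyme. Absorptive cells of ileum and colon use this pathway to fuel transport, and the colonocyte is known for oxidising butyrate that bacteria make. Some core subunits are encoded by the mitochondrial genome, and the 13 rows for those transcripts are listed at 0 in every library, so only subunits of the nuclear genome are described.

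The study compared male rats without diabetes (ND), within about 1 month of diabetes onset (D1M) and about 3 months after onset (D3M), with 6 rats in each group. ND rats were 70 days old, D1M rats 168 to 172 days old with 22 to 23 days of diabetes, and D3M rats 172 to 173 days old with 88 to 116 days of diabetes. Every rat gave a distal ileum and a proximal colon library, 18 of each tissue, so that comparisons with ND share the same ND libraries and those with D3M the same D3M libraries. All rats were of the UCD-T2DM line, and because ND rats were younger, age and diabetes cannot be told apart in any comparison with ND.

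Total counts were 12279059 to 21510043 per ileum library and 10024041 to 18299050 per colon library. Libraries were sequenced on 3 flow cells that were not spread evenly over the groups: flow cell 2 held 3 ND, 1 D1M and 0 D3M ileum libraries, and 2 ND, 2 D1M and 4 D3M colon libraries. The ileal bile acid binding protein Fabp6 was at 12900 to 36120 CPM in ileum, and in colon at no more than 19.86 CPM except for 1 ND library (rat K4028) at 8191 CPM. The colonic carbonic anhydrase Car1 was at 14100 to 31470 CPM in colon. In ileum its median was 17.91 CPM, with 3863 CPM in 1 ND library (rat K4040) and 1494 CPM in 1 D3M library (rat P762). Without the colon of K4028 and the ileum of K4040 the number of genes that passed in colon against ileum stayed at 81. The ileum of P762 was kept in these fits. In ileum of D3M against ND it went from 3 to 2. Genes at an unadjusted p under 0.05 (edgeR) changed as well. In colon they went from 5 to 1 for D3M against ND and from 3 to 0 for D1M against ND. In ileum they went from 14 to 10 and stayed at 2. For the change in ileum minus that in colon they went from 14 to 3 and from 4 to 0. Levels are CPM scaled by the trimmed mean of M values (TMM) over all libraries. Since gene lengths were not used, levels of different genes are not compared with each other.

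The start regions of a few genes named later are shown, those of the c ring of ATP synthase, Cox4i1 and Ndufaf5. A link between these regions and the levels of the genes was not tested. The regions are RefSeq sequences of the GRCr8 build, a later build than the rn6 build of the counts. They run from 250 bases before to 50 bases after each gene's start. Of 86 symbols looked up, 60 matched by symbol and 14 by a synonym, and 12 were not matched. Capitals mark matches on either strand to the letters GCGCANGCG for nuclear respiratory factor 1 (NRF1), CCGGAAG for ETS factors such as GABP, and TCAAGGTCA for oestrogen-related receptors (ERR), which are factors known for binding near genes of mitochondrial proteins. Atp5g1, Atp5g2 and Atp5g3 encode the same mature c subunit, and they lie at chr10:81523296-81523595 (minus strand), chr7:135678169-135678468 (minus) and chr3:79220615-79220914 (minus). Cox4i1 lies at chr19:65630133-65630432 (plus) and Ndufaf5 at chr3:147961362-147961661 (plus).
Atp5g1: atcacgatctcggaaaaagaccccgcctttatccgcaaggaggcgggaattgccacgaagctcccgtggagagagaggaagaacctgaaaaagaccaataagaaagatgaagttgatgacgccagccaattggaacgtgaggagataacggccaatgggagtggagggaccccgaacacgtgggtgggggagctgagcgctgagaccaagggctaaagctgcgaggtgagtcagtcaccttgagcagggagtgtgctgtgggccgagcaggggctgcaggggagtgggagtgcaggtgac
Atp5g2: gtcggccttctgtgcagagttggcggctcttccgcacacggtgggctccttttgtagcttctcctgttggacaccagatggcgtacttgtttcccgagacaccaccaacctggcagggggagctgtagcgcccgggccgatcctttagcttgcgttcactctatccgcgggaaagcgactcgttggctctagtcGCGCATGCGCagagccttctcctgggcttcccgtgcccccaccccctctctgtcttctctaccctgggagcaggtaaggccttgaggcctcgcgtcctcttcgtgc
Atp5g3: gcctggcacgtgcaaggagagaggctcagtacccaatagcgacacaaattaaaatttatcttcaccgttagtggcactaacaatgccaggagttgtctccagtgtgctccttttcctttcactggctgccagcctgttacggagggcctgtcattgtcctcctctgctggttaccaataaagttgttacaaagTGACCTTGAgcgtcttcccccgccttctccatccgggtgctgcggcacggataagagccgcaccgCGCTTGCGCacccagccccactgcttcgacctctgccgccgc
Cox4i1: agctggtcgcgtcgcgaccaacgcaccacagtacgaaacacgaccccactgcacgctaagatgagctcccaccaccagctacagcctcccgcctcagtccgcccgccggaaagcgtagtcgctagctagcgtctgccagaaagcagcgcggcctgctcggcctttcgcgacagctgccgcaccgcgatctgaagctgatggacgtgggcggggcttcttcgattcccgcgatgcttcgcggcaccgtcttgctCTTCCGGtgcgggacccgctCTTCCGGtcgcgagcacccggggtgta
Ndufaf5: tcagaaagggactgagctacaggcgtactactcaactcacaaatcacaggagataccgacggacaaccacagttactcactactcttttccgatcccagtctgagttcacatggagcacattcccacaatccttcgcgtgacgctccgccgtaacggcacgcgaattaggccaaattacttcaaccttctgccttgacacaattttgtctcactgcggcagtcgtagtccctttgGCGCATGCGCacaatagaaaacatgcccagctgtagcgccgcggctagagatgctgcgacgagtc

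Among the 74 matched start regions, 21 (28.4%) held the NRF1 letters, against 5.8% of all 33469 start regions of the same length. The ETS letters stood in 21 of 74 (28.4%), against 8.75% of all. The ERR letters stood in 2 of 74 (2.7%), against 0.433% of all. At least 1 of the 3 stood in 38 of 74 (51.4%), against 13.8% of all. In the sequences printed, Atp5g2 and Ndufaf5 hold the NRF1 letters, Atp5g3 the NRF1 and ERR letters and Cox4i1 the ETS letters, and Atp5g1 holds none of the 3. In Atp5g2 and Ndufaf5 the matches on both strands overlap and are capitalised as 1 run. A match says only that these letters stand in the window.

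The largest difference among these genes was between the tissues. In colon against ileum, 80 of the 89 genes were higher in colon, 1 was lower and 8 did not pass (edgeR's quasi-likelihood test, FDR < 0.05 over 13697 transcripts). Over all transcripts 73.2% passed, 38.7% as higher and 34.5% as lower in colon, so that the share of these genes that was higher exceeded the background. Their median log2 fold change was 0.605, against 0.027 over all transcripts. In 26 of the 89 genes every colon library was above every ileum library, which was so for 7.68% of all transcripts. In a bulk tissue sample, fewer cells of a type and less RNA per cell cannot be told apart.

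Summed over its members, complex I stood at 3734.9 to 6102.7 CPM in ileum (median 4786.5, n = 18) and at 6366.4 to 9671.8 CPM in colon (median 7533.2, n = 18). The tissues did not overlap for complex I. Complex IV stood at 3549.4 to 6324.1 CPM in ileum (median 4668.7) and at 6610.6 to 10719 CPM in colon (median 8292.8), again without overlap. Complex V overlapped between tissues, with 7690.1 to 11776 CPM in ileum (median 9438.6) and 10486 to 15513 CPM in colon (median 12606). Complex II overlapped too, with medians of 1434.6 CPM in ileum and 1836.6 CPM in colon, while complex III had medians of 2368.4 CPM and 3699.2 CPM, and its highest ileum library, at 2963.4 CPM, met its lowest colon library, at 2963.3 CPM.

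Within a rat the colon library was above the ileum library in 18 of 18 rats for the sum of each complex. The median ratio within a rat was 1.79 for complex IV, 1.54 for complex III, 1.53 for complex I, 1.29 for complex V and 1.25 for complex II. The lowest ratios of complexes II and V were those of the D3M rat P762, at 1.00 and 1.06. The direction was also seen on each flow cell. Over all 5 complexes colon libraries held 28640 to 34240 CPM on flow cell 1, against 18190 to 23800 CPM in ileum, 27990 to 37260 against 18750 to 25820 on flow cell 2, and 32330 to 42310 against 23450 to 28890 on flow cell 3. On raw library totals the ratio of the tissue medians over all 5 complexes was 1.63, against 1.52 after TMM scaling.

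**Figure D1:**
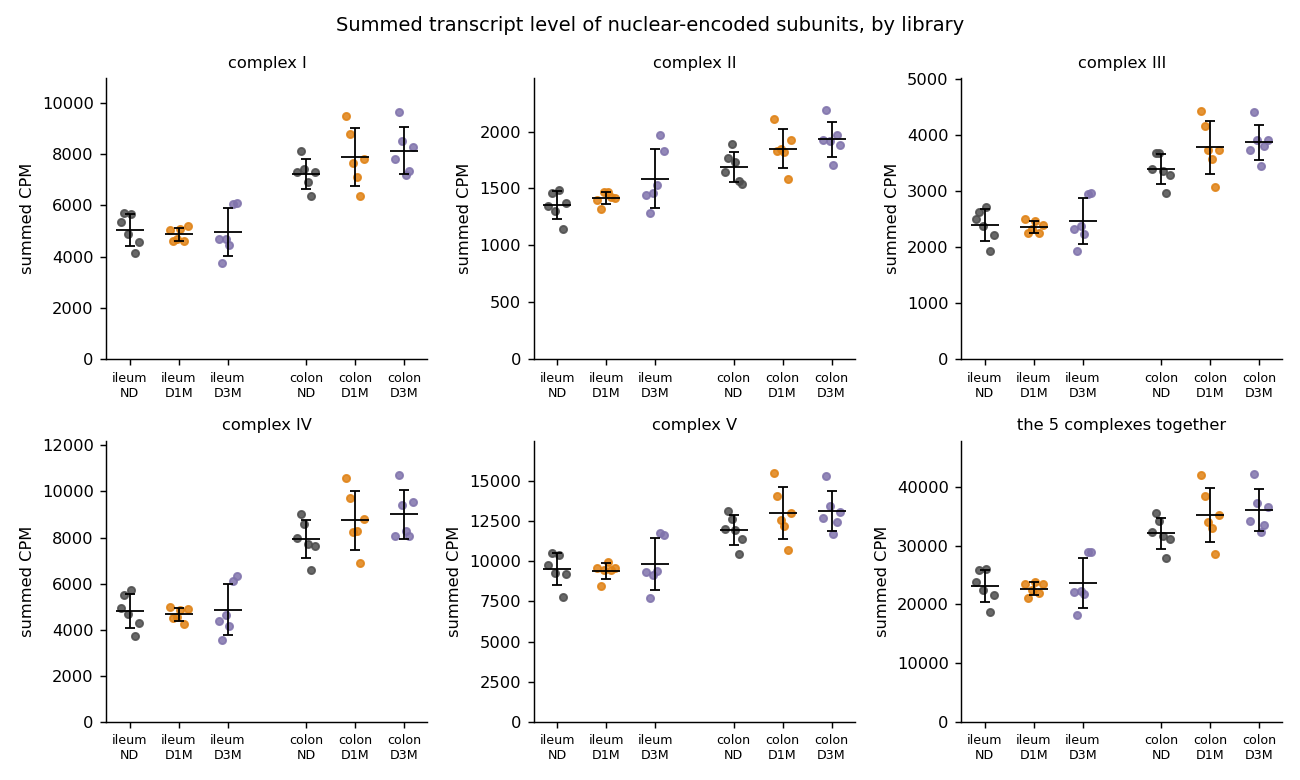
Summed level of the members of each complex in every library, in CPM scaled by TMM, for ND, D1M and D3M in ileum and colon (6 libraries each). Points are libraries and bars the group mean and SD. For complexes I and IV every colon library lies above every ileum library, while for complexes II and V the tissues overlap.

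In complex I, 32 of 33 rows were higher in colon, with a median log2 fold change of 0.65. Among the 32 was a second row of Ndufv3 on chromosome 13, with a span of 327 bases. The 7 subunits of the catalytic core, which hold the flavin and iron-sulfur clusters that carry electrons, had a median of 0.76. The 26 supernumerary rows had a median of 0.60. Ndufs8, a core subunit with iron-sulfur clusters, ranged from 94.5 to 164 CPM in ileum (median 134) and from 210 to 309 CPM in colon (median 249), and these ranges did not overlap (log2 fold change 0.87, SE 0.0525, edgeR FDR 3.42e-16). The supernumerary subunit Ndufa7 had a log2 fold change of 0.99 and Ndufa12 one of 0.89. Ndufc2 was the exception that did not pass, with 0.06.

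All 4 subunits of complex II passed as higher in colon, with smaller differences than the median of all the genes described. This complex also belongs to the tricarboxylic acid (TCA) cycle. Sdhc, a membrane anchor, had a log2 fold change of 0.49, the flavoprotein Sdha one of 0.39, the membrane anchor Sdhd one of 0.30 and the iron-sulfur protein Sdhb one of 0.20. The levels of Sdha were 276 to 487 CPM in ileum (median 329) and 347 to 529 CPM in colon (median 438). The colon libraries lay higher as a group, but most of the range was shared. Sdhb no longer passed in 1 of 32 alternative settings, with an FDR of 0.0815.

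All 9 rows of complex III passed, with a median log2 fold change of 0.61. One of the 9 was the second row of Uqcrb, counted mainly on flow cell 2, which held 8 colon and 4 ileum libraries. Its call was lost with the epithelial score as a covariate (0.68, FDR 0.117), and it was not tested without flow cell 2. Uqcrc2, a core protein, and Uqcr10, a small subunit, both had a log2 fold change of 0.73, and the core protein Uqcrc1 had 0.60. Uqcrc1 stood at 314 to 418 CPM in ileum (median 376) and at 494 to 638 CPM in colon (median 571). No ileum library reached the lowest colon library for this gene.

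In complex IV, 12 of 15 rows were higher in colon, with a median log2 fold change of 0.69. Among the 12 was the second row of Cox6b1, counted mainly on flow cell 2, which held 8 colon and 4 ileum libraries. That row passed in 32 of 32 alternative settings, with values from 0.43 to 1.88. Cox7b, a small subunit needed for assembly of the enzyme, ranged from 170 to 375 CPM in ileum (median 290) and from 500 to 874 CPM in colon (median 627). The ranges were apart, and its log2 fold change of 1.18 (SE 0.0715, edgeR FDR 3.35e-16) was the largest among subunits of the 5 complexes. Cox5a and Cox5b, subunits of the nuclear genome that surround the catalytic core, had log2 fold changes of 1.00 and 0.96, and Cox8a had 0.94.

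Complex IV also has pairs of isoforms encoded by separate genes. The isoforms that most tissues use were all higher in colon, with log2 fold changes of 0.68 for Cox4i1, 0.75 for Cox6a1, 0.70 for the main row of Cox6b1 and 0.82 for Cox7a2. Cox4i1 stood at 1034 to 1644 CPM in ileum (median 1234) and at 1653 to 2423 CPM in colon (median 2040), without overlap. The partner isoforms did not pass: Cox4i2, known as the lung and hypoxia-responsive isoform, had 0.18 (SE 0.107), Cox6b2, known from testis, had 0.22 (SE 0.139), and Cox6a2, known from heart and skeletal muscle, had −0.26 (SE 0.305). These 3 were at low levels, with Cox4i2 at 3.84 to 12.8 CPM in ileum and 6.63 to 12.6 CPM in colon. The muscle isoforms Cox7a1 and Cox8b were below the 1 CPM limit.

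In complex V, 12 of 14 subunits were higher in colon, Atp5o did not pass (0.09) and Atp5g1 was lower. The F1 head, where ATP is made, had a median log2 fold change of 0.43. Among its 5 subunits the values were 0.69 for Atp5e, 0.45 for Atp5d, 0.43 for Atp5c1, 0.37 for Atp5a1 and 0.22 for the catalytic subunit Atp5b, and all 5 passed. The peripheral stalk subunit Atp5j had 1.01, with 145 to 297 CPM in ileum (median 218) and 322 to 653 CPM in colon (median 421), without overlap.

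Atp5g1 went the other way from the other genes of the c subunit. It stood at 402 to 912 CPM in ileum (median 612) and at 356 to 725 CPM in colon (median 541), with wide overlap, and its log2 fold change in colon against ileum was −0.20 (SE 0.0685, edgeR FDR 0.0109). Atp5g2 had 0.54 and Atp5g3 had 0.62, and both passed as higher in colon. The call for Atp5g1 was lost without flow cell 2 (−0.20, FDR 0.0568), and its sign turned with the summed level of epithelial markers as a covariate (0.17, FDR 0.207).

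Ratios of counts within a library show the same pattern for the c subunit without any scaling between libraries, and they were looked at after the values of these genes had been seen, so no test is given. In ND rats the ratio of Atp5g1 to Atp5g2 had a median of 0.852 in ileum and 0.544 in colon. In ileum the ND libraries were at 0.763 to 0.962, those of D1M at 0.915 to 1.13 (median 0.99) and those of D3M at 0.984 to 1.12 (median 1.06). Every D3M library was above every ND library, and the D1M libraries overlapped both. Among levels of single transcripts in ileum, 4.94% of all 13026 had every D3M library above every ND library, and 0 of the 87 tested genes. No such share was computed for ratios. On flow cell 1 the ND library was at 0.962 and the 4 D3M libraries at 0.984 to 1.12, and on flow cell 3 the 2 ND libraries were at 0.816 to 0.858 and the 2 D3M libraries at 1.05 to 1.07. The ratio of Atp5g1 to Atp5g3 in ileum was 0.704 to 0.887 in ND and 0.968 to 1.13 in D3M. In D1M it was 0.657 to 1.01 (median 0.874), from below the lowest ND library into the D3M range. The D1M libraries of flow cell 1 were at 0.657 to 0.84. In colon the ratio of Atp5g1 to Atp5g2 overlapped between the groups, with 0.481 to 0.601 in ND and 0.407 to 0.681 in D3M.

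**Figure D2:**
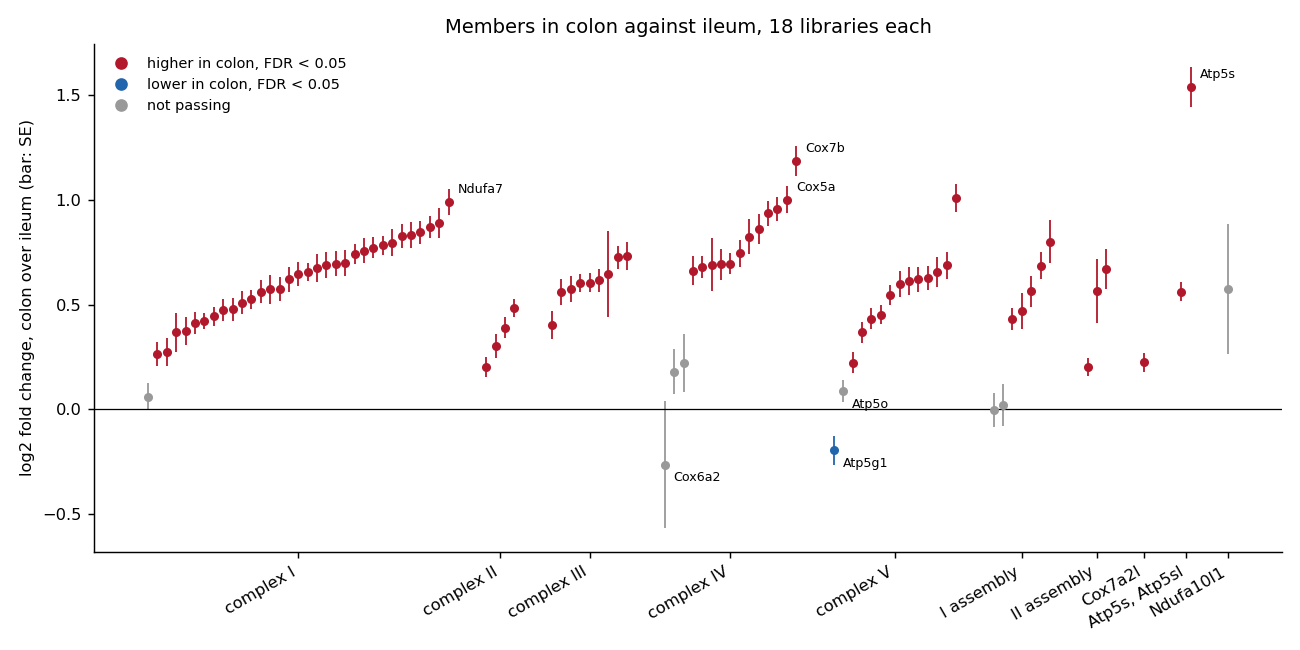
Log2 fold change of each of the 89 genes in colon against ileum (18 libraries each), ordered within complexes and assembly groups. Points are estimates of edgeR and bars their SE, and of the 89 genes 80 are higher, 1 (Atp5g1) is lower and 8 do not pass.

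Outside the complexes, 5 of 7 assembly factors of complex I and all 3 of complex II were higher in colon, with medians of 0.47 and 0.57. Ndufaf1 and Ndufaf2 did not pass, at −0.00 and 0.02. Atp5s, a coupling factor also named Dmac2l, had the largest log2 fold change of all 89 genes, 1.54 (SE 0.0945, edgeR FDR 4.93e-16). Its levels were low, 2.33 to 4.72 CPM in ileum (median 3.32) and 8.18 to 12.7 CPM in colon (median 9.39), and did not overlap.

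Other genes of the pathway were read from lists, beside the 38.7% of all transcripts that were higher in colon and the 34.5% that were lower. Of the mitochondrial ribosome, which makes the subunits of the mitochondrial genome, 67 of 72 genes were higher in colon and 1 was lower. Of 27 assembly factors of complexes III and IV, 21 were higher and 2 lower, with Lyrm7, a factor for the iron-sulfur protein of complex III, at 1.48 and the copper chaperone Cox17 at 1.38. Of 13 genes for cytochrome c, its partners and ubiquinone synthesis, 11 were higher and 1 lower, with Coq7 at 0.97 and Coq9 at 0.74.

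Among genes of mitochondrial mass and import 17 of 19 were higher and 1 lower. In complex I assembly factors that the naming rule does not reach, 5 of 7 were higher and 1 lower, with Ecsit at 0.75 and Tmem126b at 0.69. Neighbours of complex V showed 7 higher and 2 lower of 9, among them the assembly factors Atpaf2 (0.53) and Tmem70 (0.49). The TCA cycle was less uniform, with 10 of 20 higher and 6 lower, such as Suclg2 (0.83) and Dlst (−0.96). In glycolysis 10 of 16 rows were higher and 1 lower, with Pfkl at 1.59 and Aldoa at 1.22. Of 14 regulators of mitochondrial genes 7 were higher and 3 lower, with the coactivator Ppargc1a at 2.13 and the mitochondrial transcription factor Tfb2m at 0.75. Over all transcripts 38.7% were higher and 34.5% lower. The counts of the TCA cycle and of the regulators were not far from these shares.

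Cell type markers differed between the tissues as well. Summed over 9 measured markers each, epithelium was at 16880 to 33060 CPM in ileum and 12440 to 20310 CPM in colon, and smooth muscle at 1617 to 9242 CPM in ileum and 5708 to 18700 CPM in colon. Log2 fold changes of the single epithelial markers went both ways. Vil1 had −1.81, Krt20 −1.20, Cldn7 −0.85, Epcam −0.64, Cdh1 −0.26 and Krt8 −0.16. Krt18 had 0.23, Cldn3 0.14 and Elf3 0.10, and of these markers Krt8 and Elf3 did not pass. The 6 adipocyte markers summed to 42.92 to 222.6 CPM in ileum and 514.7 to 1352 CPM in colon, with Ucp1, which defines brown fat, at 0. Fabp4, Lep, Adipoq and Plin1 had log2 fold changes of 4.286, 2.155, 1.941 and 1.507, while Cidec had −0.15 and did not pass. With the epithelial score as a covariate 78 of the 89 genes passed as higher in colon and 0 as lower, and with the smooth muscle score 77 as higher and 2 as lower.

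Within the tissues few of these genes differed between the groups. In ileum of D3M against ND, 0 of 87 tested genes were higher and 3 were lower at FDR < 0.05, where 12.5% of all 13026 transcripts passed, 8.31% as higher and 4.22% as lower. The 3 were Ndufaf5 and Ndufaf7, which encode assembly factors that modify arginines of core subunits of complex I, and Ndufa4, a subunit first assigned to complex I and now to complex IV. The share of genes that were lower was thus close to the background. The median log2 fold change was −0.08, as over all transcripts. It was −0.01 without flow cell 2, −0.02 with only the ND and D3M ilea, −0.14 in voom and −0.25 with the epithelial score as a covariate. Leaving out 1 library gave −0.09 to −0.03, with −0.03 without D3M rat K3961 and −0.04 without D1M rat K3986.

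Ndufaf5 (rn6 chromosome 3, 133232432 to 133261973, plus strand) stood at 14.1 to 18.5 CPM in ND (median 15.1), at 12.4 to 15.5 CPM in D1M (median 14.5) and at 10.9 to 14.2 CPM in D3M (median 12.0, n = 6 each). Only the highest D3M library reached the lowest ND library. The log2 fold change in D3M against ND was −0.45 (SE 0.107, edgeR FDR 0.0137). On flow cell 1 the ND library had 14.8 CPM and the D3M libraries 10.9 to 14.2, and on flow cell 3 the ND libraries had 15.6 to 18.5 and the D3M libraries 11.7 to 12.8. The call held without any 1 of the 18 ileum libraries in turn but not without flow cell 2 (−0.40, FDR 0.076).

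Ndufa4 (chromosome 4, 38233680 to 38240848, minus strand) stood at 128 to 158 CPM in ND (median 136), 113 to 153 CPM in D1M (median 132) and 73.7 to 143 CPM in D3M (median 105). D3M libraries were lower as a group, with 1 of the 6 inside the ND range. On flow cell 1 the ND library had 134 CPM and the D3M libraries 73.7 to 111. On flow cell 3 the groups overlapped, with 137 to 158 CPM in ND and 124 to 143 CPM in D3M. The log2 fold change was −0.45 (SE 0.132, edgeR FDR 0.0351). Leaving out 1 library ended the call in 5 of 18 cases, namely ND rats K4028 and K4048, D1M rat K3986 and D3M rats K3977 and P762, with an FDR of at most 0.101.

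Ndufaf7 (chromosome 6, 1534594 to 1545828, plus strand) stood at 10.8 to 15.5 CPM in ND (median 13.3), 9.68 to 12.9 CPM in D1M (median 12.1) and 8.33 to 12.1 CPM in D3M (median 9.12). Its groups overlapped as well. On flow cell 1 the ND library, at 10.8 CPM, lay inside the D3M range of 8.33 to 12.1 CPM. On flow cell 3 the ND libraries had 13.7 to 15.5 CPM and the D3M libraries 8.84 to 12.1 CPM. The log2 fold change was −0.47 (SE 0.149, edgeR FDR 0.047), and the call was lost without 15 of the 18 libraries in turn, with an FDR of at most 0.136. Without flow cell 2 the FDR was 0.176 for Ndufa4 and 0.193 for Ndufaf7, and the direction was kept for both.

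**Figure D3:**
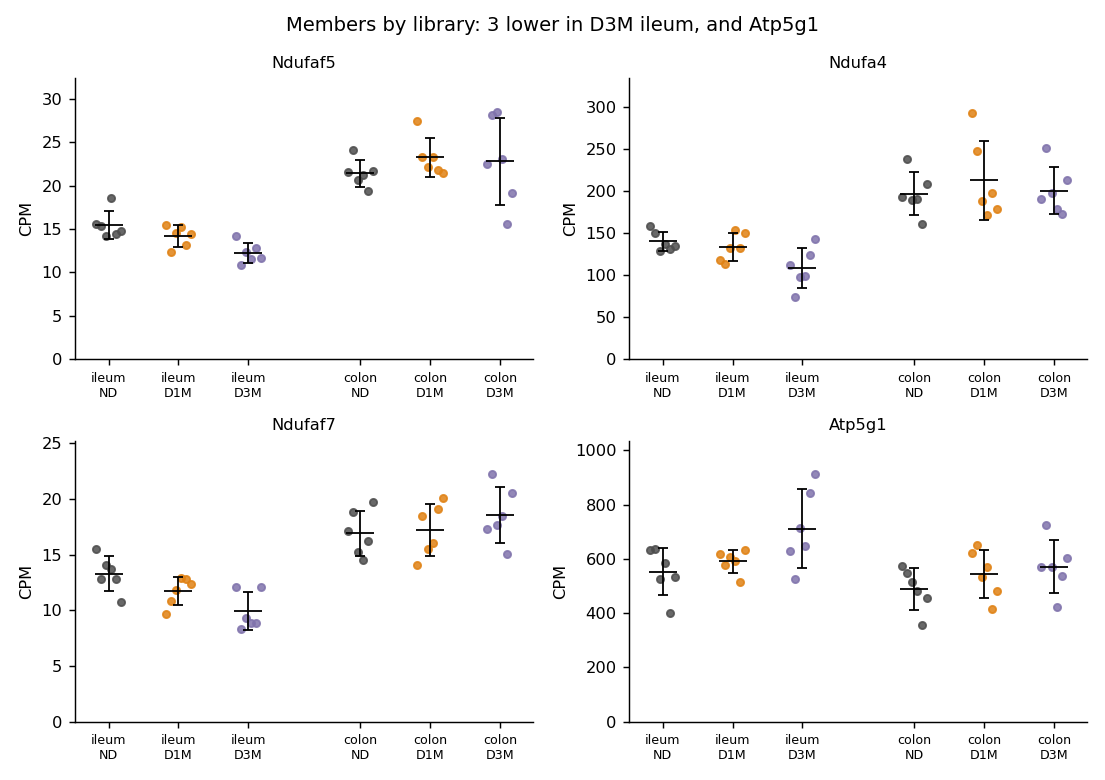
Levels of Ndufaf5, Ndufa4, Ndufaf7 and Atp5g1 in every library, in CPM scaled by TMM, for ND, D1M and D3M in ileum and colon (6 libraries each). Points are libraries and bars the mean and SD, and in ileum the D3M libraries of Ndufaf5 lie at 10.9 to 14.2 CPM beside 14.1 to 18.5 CPM in ND.

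Of the 87 genes, 14 were at an unadjusted p under 0.05 in ileum of D3M against ND, 3 of them with a positive and 11 with a negative log2 fold change, where 29.7% of all transcripts were. Over all 87, 27 values were positive, against 41.6% of all transcripts. The positive ones were Atp5g1 (0.33, edgeR FDR 0.0837), Ndufa6 (0.30, FDR 0.0909), a supernumerary subunit of complex I, and Sdha (0.21, FDR 0.143). Of the negative ones 7 were assembly factors of complexes I and II. These 10 assembly factors had a median log2 fold change of −0.46, with 9 of 10 negative and 2 past the FDR. Ndufaf6 had −0.54 and Sdhaf4, which helps to mature the flavoprotein of complex II, had −0.63 (FDR 0.0825), and neither passed.

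The 74 tested rows of the 5 complexes had a median of −0.04. By complex the median was −0.10 for complex I, −0.00 for complex III, −0.02 for complex IV and −0.01 for complex V, and 0.17 for complex II, where all 4 subunits had positive values between 0.10 and 0.21 and none passed. The 5 subunits of F1 had values from −0.18 to 0.06. The isoforms Cox4i2, Cox6b2 and Cox6a2 had −0.40 (FDR 0.299), −0.51 (FDR 0.251) and −0.72 (FDR 0.503), on levels of a few CPM.

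The sum over the 5 complexes in ileum was 18754 to 25974 CPM in ND (median 23217), 21120 to 23804 CPM in D1M (median 22955) and 18192 to 28888 CPM in D3M (median 22256). The D3M range enclosed that of both other groups. Its top was set by rats P762 and P780 (28878 and 28888 CPM), both on flow cell 3 and with the lowest TMM factors of all libraries, 0.7705 and 0.7713. The other 4 D3M ilea, all on flow cell 1, were at 18192 to 22303 CPM. On raw library totals the medians were 24222 CPM in ND and 20363 CPM in D3M, so that the gap between these groups depended on the scaling, and the ranges still overlapped (21471 to 25271 and 16368 to 22281 CPM).

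Other lists of genes were counted in ileum of D3M against ND beside the 8.31% of all transcripts that were higher and the 4.22% that were lower. Of 72 mitochondrial ribosome genes 8 were lower and 0 higher (median −0.21), with Mrps7 at −0.44 and Mrpl58 at −0.32. The TCA cycle had 2 genes higher and 1 lower of 20, with the citrate synthase Cs at 0.52 and Dlst at 0.50, and glycolysis had 3 higher and 0 lower of 16, with lactate dehydrogenase Ldha at 0.71 and Eno1 at 0.51. The mitochondrial transcription factor Tfam was the only regulator of 14 that passed, at −0.51. Lyrm7 (−0.61) passed among 26 assembly factors of complexes III and IV, the import pore Tomm40 (−0.52) among 19 genes of mass and import, and Etfdh (−0.48) and Coq5 (0.38) among 13 genes of electron carriers.

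Markers of other cell populations moved in this comparison. The epithelial markers summed to 16880 to 23060 CPM in ND and 24040 to 33060 CPM in D3M, without overlap, and the ileal epithelial markers to 18920 to 31870 CPM and 27210 to 50830 CPM. The 12 cell cycle markers summed to 351.7 to 685.7 CPM in ND and 268.1 to 467.9 CPM in D3M, and the 6 fibroblast markers to 551.3 to 1088 CPM and 430.4 to 677.7 CPM. Of the single markers 4 of 9 epithelial ones were higher and 1 lower, and 5 of 8 ileal epithelial ones were higher and 0 lower. With the epithelial score as a covariate 0 of the 87 genes passed, while 34 were at an unadjusted p under 0.05, against 14 without it. The log2 fold changes were then −0.51 for Ndufaf5 (edgeR FDR 0.0894), −0.50 for Ndufa4 (FDR 0.159) and −0.35 for Ndufaf7 (FDR 0.329). Since the epithelial markers did not overlap between ND and D3M, this fit cannot fully separate their score from the group. The 10 B cell markers summed to 39.04 to 1086 CPM in ND and 31 to 392.6 CPM in D3M. With the B cell score as a covariate 2 of the 87 genes passed, and 17 were at an unadjusted p under 0.05 (edgeR). The part of these populations in the result was otherwise not tested.

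In ileum of D1M against ND, 0 of 87 genes passed in edgeR, DESeq2 or voom, and 2 were at an unadjusted p under 0.05 in edgeR, where 0.0154% of all transcripts passed the FDR and 8.34% were at such a p. The 2 genes at such a p were Atp5sl (−0.23, edgeR FDR 0.411) and Cox7a2l (−0.19). DESeq2 gave no adjusted p for 24 of the 87. In ileum of D3M against D1M, 0 passed in edgeR and in DESeq2 and 1 in voom, and 9 were at an unadjusted p under 0.05, where 2.22% of all transcripts passed the FDR and 19.1% were at such a p. Ndufa4 had the smallest FDR, 0.0996 at a log2 fold change of −0.36. D1M and D3M rats were of nearly the same age.

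In colon, 0 of 89 genes passed in D3M against ND in edgeR, DESeq2 or voom, where 0.0155% of all 12906 transcripts passed. An unadjusted p under 0.05 was reached by 5 in edgeR, against 10% of all transcripts: Ndufa7 (0.25), Sdha (0.24), Sdhc (0.23), Uqcrfs1 (0.20), which carries the iron-sulfur cluster of complex III, and Uqcrc1 (0.16). That number was 10 in DESeq2, 22 in voom, 12 with no flow cell term, 31 with only the groups compared and 0 without flow cell 2. Leaving out 1 library gave 0 (without ND rat K4047) to 39 (without D3M rat K3980). The log2 fold change was positive for 83 of 89 genes, with a median of 0.14, whereas 47.6% of all transcripts were positive, with a median of −0.01. Uqcrc1, for example, stood at 494 to 575 CPM in ND (median 523) and 527 to 638 CPM in D3M (median 607), and these ranges overlapped.

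In colon of D1M against ND, 0 of 89 genes passed by any of the 3 tools, 3 were at an unadjusted p under 0.05 in edgeR (Uqcrb 0.25, Ndufs1 0.23 and Atp5g3 0.20), and 80 had a positive value, with a median of 0.12. DESeq2 gave no adjusted p for 6 of the 89. The median was 0.08 without flow cell 2 and 0.08 to 0.16 without 1 library, with 0.08 without ND rat K4047. The number at an unadjusted p under 0.05 was 0 without ND rat K4028 and 21 without D1M rat K3989. Of all transcripts 0% passed, 4.66% were at an unadjusted p under 0.05 and 49.8% had a positive value. These values share the ND libraries with the comparison of D3M against ND. In colon of D3M against D1M, 0 of 89 passed and 0 were at an unadjusted p under 0.05 in edgeR, 0 passed in DESeq2 and voom, and 59 had a positive value. Of all transcripts 0% passed, 5.28% were at an unadjusted p under 0.05 and 47% had a positive value. The 5 complexes summed to 27992 to 35669 CPM in ND colon (median 32011), 28640 to 42127 CPM in D1M (median 34641) and 32334 to 42313 CPM in D3M (median 35442). The medians were ordered, but each range overlapped the next, and the sizes were small beside the difference from ileum.

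In colon, flow cell 1 held 2 ND and 0 D3M libraries and flow cell 2 held 2 ND and 4 D3M libraries. The 10 B cell markers summed to 13.04 to 830.8 CPM in ND colon, 19.69 to 1005 CPM in D1M and 15.46 to 365.5 CPM in D3M. Rat K4047 (ND) was at 790.3 CPM, K4048 (ND) at 830.8 CPM and K3989 (D1M) at 1005 CPM. With the B cell score as a covariate 0 of 89 genes passed in D3M against ND, and 5 were at an unadjusted p under 0.05 (edgeR). The fibroblast markers summed to 928.1 to 1796 CPM in ND colon and 562.2 to 957.3 CPM in D3M colon. Without flow cell 2 the median log2 fold change of the genes in colon of D3M against ND was 0.06, and without ND rat K4047 it was 0.09. The part of the fibroblast markers in these values was not tested.

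**Figure D4:**
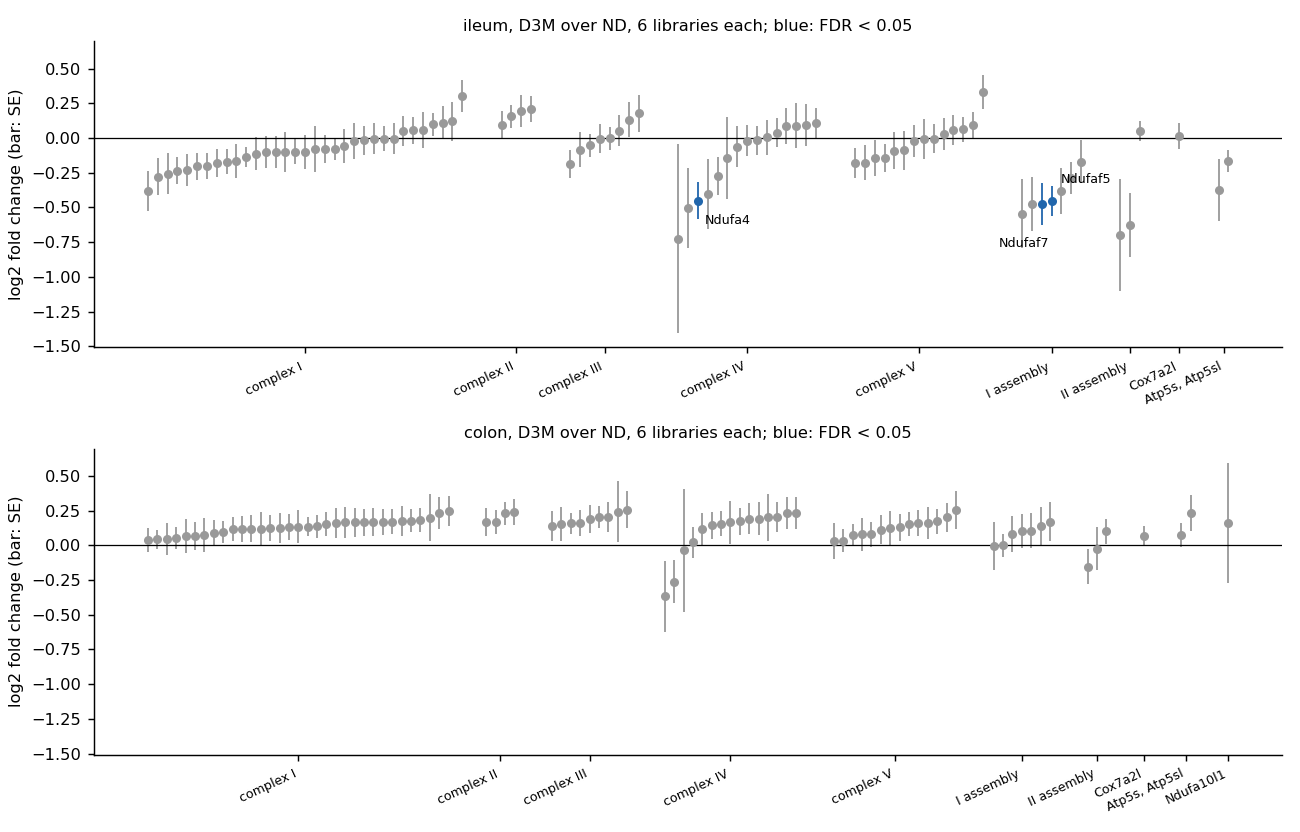
Log2 fold change of each gene in D3M against ND, in ileum (87 genes, upper panel) and colon (89 genes, lower panel), ordered within complexes and assembly groups. Points are estimates of edgeR and bars their SE, and blue marks the 3 genes past FDR < 0.05, all in ileum.

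Whether a change between groups was of another size in ileum than in colon was tested in 1 model over all 36 libraries. For D3M against ND in ileum minus colon, 0 of 89 genes passed in edgeR and in voom and 1 in DESeq2, and 14 were at an unadjusted p under 0.05, where 1.56% of all 13697 transcripts passed and 16.8% were at such a p. With the rat as replicate block 2 were at an unadjusted p under 0.05, and 3 without flow cell 2. Without 1 rat the number was 3 (without K3961) to 23 (without P780). DESeq2 gave no adjusted p for 2 of the 89. Ndufaf5 had the smallest FDR, 0.0846, with a difference of −0.51 in log2 fold change. It passed in DESeq2 (−0.52, FDR 0.0407) and in edgeR without ND rat K4048 (−0.61, FDR 0.0421), and had −0.36 (FDR 0.455) with the rat as replicate block. The median difference over the 89 genes was −0.16. It was −0.04 without flow cell 2, −0.24 with the epithelial score, −0.25 in voom and −0.23 to −0.08 without 1 rat, with −0.08 without K3961. In the fit of all libraries 8 of 89 values were positive, against 51.7% of all transcripts. For D1M against ND and D3M against D1M, 0 genes passed by any of the 3 tools, and in edgeR 4 and 0 were at an unadjusted p under 0.05, against 5.66% and 8.31% of all transcripts, of which 0% passed in both. For D1M against ND 1 gene was at such a p with the rat as replicate block.

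The 89 rows include 3 symbols with a second row at another place in the genome (Uqcrb, Cox6b1 and Ndufv3), and the separate copy Ndufa10l1. The second rows of Uqcrb and Cox6b1 and the row of Ndufa10l1 followed the flow cell. The second row of Ndufv3 (ENSRNOG00000027593, chromosome 13, a span of 327 bases) was not among the rows that did. The second row of Uqcrb (ENSRNOG00000032204, rn6 chromosome 1, 94718402 to 94718876, a span of 475 bases) stood at 5.69 to 14.9 CPM in the 12 libraries of flow cell 2 (median 9.47) and at 0 to 0.526 CPM in the other 24. The second row of Cox6b1 (ENSRNOG00000034161, chromosome 2, 211337271 to 211337531, 261 bases) stood at 21.4 to 51.5 CPM on flow cell 2 (median 34.5) and at 0.569 to 3.66 CPM elsewhere. Ndufa10l1 stood at 2.41 to 6.63 CPM and at 0 to 0.354 CPM. For these 3 every library of flow cell 2 was above every other library, in both tissues and in all groups present.

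Of rows under the 1 CPM limit, Ndufa13 and Cox6c-ps1 did the same, and Cox6c-ps1 was listed at 0 in all 24 other libraries. Of all 13697 tested transcripts 122 (0.891%) had every flow cell 2 library above all others with a median at least 4 times as high, and 0 had the reverse. In the other libraries the mean was 0.262 CPM for the second row of Uqcrb and 0.152 CPM for Ndufa10l1, so both pass the 1 CPM limit only through flow cell 2. The main rows of Uqcrb (chromosome 7, 247 CPM over all libraries) and Cox6b1 (chromosome 1, 268 CPM) were not among these transcripts. Reads may be shared between a gene and a near-identical copy, so the split of counts between such rows is uncertain. The cause of the flow cell pattern was not tested.

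**Figure D5:**
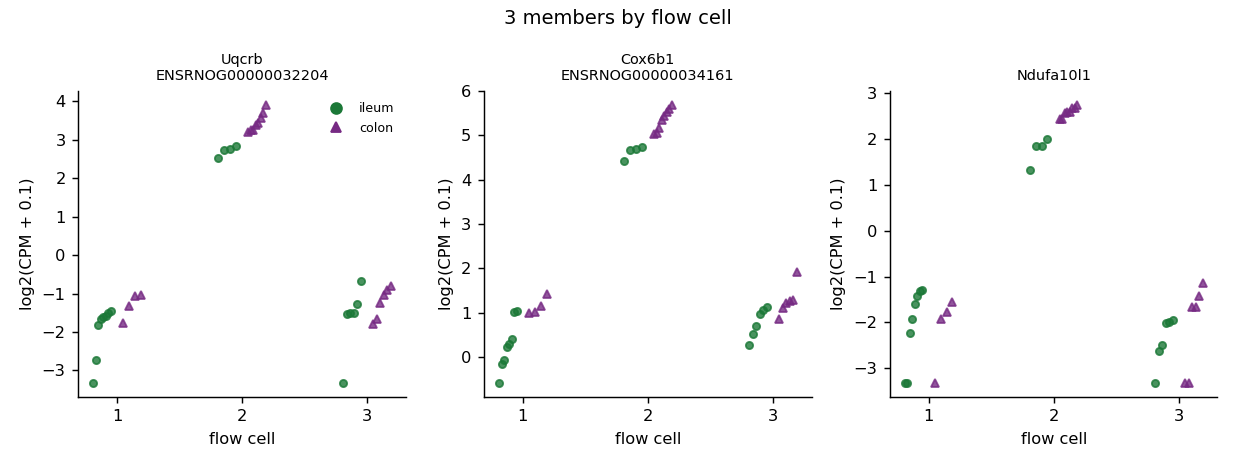
Level of the 3 rows of at least 1 CPM that followed flow cell 2 in every library, as log2 of CPM + 0.1, by flow cell and tissue. Each point is a library, and for the second rows of Uqcrb and Cox6b1 and for Ndufa10l1 the 12 libraries of flow cell 2 lie above the other 24.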

How the data were processed

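Per the labels and the study's methods, RNA of distal ileum and proximal colon was extracted with TRI reagent and RNeasy columns, and the authors made stranded mRNA libraries, sequenced them on a NextSeq 500, aligned reads with STAR to rn6 and counted reads per gene in SeqMonk. For STAR no version was found, nor was the strand setting of the counting, so reads of antisense neighbours may be mixed. The deposited values are raw integer counts of 24773 genes. Another deposited file holds log2 values scaled to library totals and gave no value here. Columns of standard deviations in the count file, 36 in number, were left out.

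All genes were fitted in edgeR 4.0.16 (R 4.3.3, limma 3.58.1) with TMM, filterByExpr by group and a robust quasi-likelihood fit (legacy method), and p-values were adjusted by Benjamini and Hochberg (FDR < 0.05). Each tissue was fitted on its 18 libraries with flow cell as a term. Colon against ileum used 36 libraries with group and flow cell, and ileum minus colon a mean for each tissue and group with flow cell within tissue. The SE is the size of the log2 fold change over the square root of F. The 6 rats of a group are separate animals. On simulated counts with changes of 2-fold, edgeR recovered 51 of 98 changed genes in ileum of D3M against ND, 65 of 99 in colon and 80 of 100 in colon against ileum, and at 1.5-fold 17 of 99, 35 of 99 and 71 of 98. The changed genes were few and drawn at random from all tested transcripts. In ileum of D3M against ND the median SE was 0.172 over all transcripts and 0.117 over the genes described. There 12.5% of all transcripts passed in the data. The recovery is therefore not a measure of power for the genes described. Alternatives were other scalings, filters and tools (DESeq2 1.42.0, voom), terms for flow cell and cell type scores, and libraries left out. Figures were drawn with matplotlib 3.10.9.

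The genes and lists were chosen with earlier results of these data known. Genes named are, per comparison and complex, up to 3 each with the most positive and most negative change at FDR < 0.05, otherwise the one with the smallest p, together with isoform pairs, the Sdh and F1 subunits, the 2 genes of each list with the smallest p, and genes described after their values were seen (the c subunit genes, assembly factors and rows that follow the flow cell). Both libraries of a rat come from the same animal: the correlation of their deviations from the group means was −0.581 to 0.784 (median −0.0333) over 18 rats.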

Additional observations from a re-analysis of the deposited data

Results flagged for a closer look

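In 162 groups of 6 values, 7 held a library whose gap to the nearest other value exceeded Dixon's limit of 0.625 of the group's range, where chance gives about 5%. Ndufaf5 was at 27.44 CPM in colon of D1M rat K3978, against 21.49 to 23.34 CPM in the other D1M colons, and at 18.53 CPM in ileum of ND rat K4040, against 14.14 to 15.57 CPM in the other ND ilea. Atp5b was at 3031 CPM in colon of D3M rat K3980, below 3453 to 3641 CPM in the others. The summed complex V level was 8445 CPM in ileum of D1M rat K3986, below 9435 to 9950 CPM. Cox6a2 was at 0.4722 CPM in ileum of D1M rat K3978, below 2.815 to 3.816 CPM, and Cox7a2 at 27.86 CPM in ileum of D1M rat K3988, above 20.97 to 22.75 CPM. The second row of Cox6b1 (ENSRNOG00000034161) was at 25.21 CPM in ileum of D1M rat K3986, the only D1M ileum library on flow cell 2, against 0.7959 to 1.93 CPM.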

How the results depend on the processing

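The 81 calls in colon against ileum became 78 to 83 under the other settings and 81 to 82 without each rat in turn. With the rat as replicate block they stayed at 81, and ileum minus colon stayed at 0 in all 3 contrasts, while genes at an unadjusted p under 0.05 went from 14 to 2 for D3M against ND and from 4 to 1 for D1M against ND. Within a tissue no paired analysis was possible because each rat gave 1 library. Among genes that passed, the sign turned for Atp5g1 in colon against ileum (0.17 with the epithelial score as a covariate). Medians near 0 turned too, in ileum of D1M against ND (−0.03 to 0.02 without flow cell 2), in colon of D3M against D1M (0.02 to −0.02 with only the groups compared), in ileum minus colon of D3M against D1M (−0.02 to 0.03 with the smooth muscle score) and in ileum of D3M against D1M (up to 0.02 without 1 library). The median log2 fold change in colon against ileum ranged from 0.515 (smooth muscle score) to 0.751 (epithelial score). In ileum of D3M against ND, 3 genes passed, and 5 in DESeq2 (2 higher, 3 lower), 8 in voom, 11 with no flow cell term, and 0 without flow cell 2, with the epithelial score or with only the groups compared. With the epithelial score the values of the 3 genes were −0.51, −0.50 and −0.35, and 34 of 87 genes were at an unadjusted p under 0.05, against 14. The epithelial markers did not overlap between ND and D3M, so that fit cannot fully separate their score from the group. Leaving out 1 library gave 1 to 5, with 1 without ND rat K4028, D1M rat K3986 or D3M rats K3977 or P762, and 5 without ND rat K4048. Ndufaf5 passed in 29 of 32 settings, Ndufa4 in 24 and Ndufaf7 in 10, each with a negative value in all of them. In ileum of D3M against D1M 1 gene passed in voom and with the smooth muscle score, and 0 to 1 without 1 library (1 without D3M rat K3959). In ileum minus colon for D3M against ND 1 passed in DESeq2 and with no flow cell term, and 0 to 2 without 1 rat (2 without ND rat K4048). The other comparisons within a tissue held 0 genes in every setting. The cause of these changes was not tested, beyond the fewer libraries of the settings that leave some out. At 6 rats a group, a small difference in ileum may not be detectable.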
